A study of Mus musculus with 2 samples.

Results

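The genes described here are the fibroblast growth factor (Fgf) system of the mouse: 22 Fgf genes, 5 receptor genes, 4 feedback inhibitors and 2 Ets transcription factors, 33 genes in all of the 43346 annotated genes that were measured. They were taken by gene symbol through the Ensembl identifier, by a rule that reads no measured value, and every one of the 33 was found in both libraries' tables. The tissue was whole brain, taken on embryonic day 14.5 from the mouse strain C57BL/6J, with no treatment or engineered allele named. Per the labels, the RNA was polyadenylated and depleted of ribosomal RNA, came from littermates of both sexes, and was sequenced as stranded paired-end libraries. There are 2 libraries, numbered as biological replicates 1 and 2, and both form 1 group, which leaves no conditions to contrast. The labels do not say which embryos, or how many, each library holds and give both the same donor entry, so differences between the libraries measure only their own spread, which may be technical.

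Fgf ligands of the paracrine kind are secreted, held near their source by heparan sulfate, and bind receptor tyrosine kinases together with that sugar chain, which starts the Ras and MAP kinase cascade in the receiving cell. Sprouty proteins and the phosphatase Dusp6 are induced by the pathway and damp it, and the Ets factors Etv4 and Etv5 are among its transcriptional outputs. In the embryonic brain the pathway is known for patterning the forebrain and the border of midbrain and hindbrain, and for keeping progenitors dividing. Endocrine members act at a distance with Klotho co-receptors. The homologous factors Fgf11 to Fgf14 are a separate branch: they stay inside the cell and bind voltage-gated sodium channels.

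The results on the receptors turn on a pair of exons that exclude each other and encode the second part of the third immunoglobulin-like domain, the part that sets which ligands bind. Receptors with exon IIIb are typical of epithelia and those with exon IIIc of mesenchyme and neural tissue. Exon IIIc is 145 bases long in Fgfr1, Fgfr2 and Fgfr3, and exon IIIb is 151 bases long in Fgfr1 and Fgfr3 and 148 in Fgfr2.

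The sequences shown first are those of the homologous factors, which hold most of the Fgf RNA in this tissue. In the annotation, 19 of the 22 Fgf genes have an internal coding exon of exactly 104 bases, a length found in 4.92% of 21866 protein-coding genes. The 3 without it are Fgf8, Fgf17 and Fgf18, one subfamily, which instead share exons of 107 and 37 bases. Fgf11 to Fgf14 additionally share flanking exons of 111 and 199 bases. Their 104-base exon is shown 5′ to 3′, cut from GENCODE M21 transcripts on the GRCm38 (mm10) assembly, with the bases identical in all 4 genes in capitals, 52 of 104.
Fgf11, chr11:69799352-69799455, − strand: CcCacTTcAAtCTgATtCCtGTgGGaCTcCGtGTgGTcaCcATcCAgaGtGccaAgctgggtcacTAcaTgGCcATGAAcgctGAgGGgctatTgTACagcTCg
Fgf12, chr16:28372913-28373016, − strand: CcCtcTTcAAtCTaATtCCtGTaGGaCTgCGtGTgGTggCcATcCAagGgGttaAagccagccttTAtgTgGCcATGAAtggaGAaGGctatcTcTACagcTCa
Fgf13, chrX:59125894-59125997, − strand: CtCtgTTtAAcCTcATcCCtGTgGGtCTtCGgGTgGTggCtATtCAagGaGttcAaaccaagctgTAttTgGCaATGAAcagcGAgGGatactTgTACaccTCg
Fgf14, chr14:124132463-124132566, − strand: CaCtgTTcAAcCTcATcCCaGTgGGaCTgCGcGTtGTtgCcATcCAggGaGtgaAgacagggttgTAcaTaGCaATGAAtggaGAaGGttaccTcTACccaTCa

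The expected counts, which are fragments that the authors' software assigned to genes, summed to 103493289 on annotated genes in replicate 1 and 97539730 in replicate 2. The 33 genes took 61366 and 57324 of them. Levels below are in TPM, a gene's share of all transcripts, corrected for length and scaled to a fixed total, so they can be compared between genes. Where a fold between the libraries is given with an interval, the interval is an exact 95% binomial one on the expected counts. It was rescaled by the factor between the TPM fold and the count fold, so that it lies around the TPM fold. It covers counting error only, not any error of that factor. In whole tissue, fewer cells of a type and less RNA per cell cannot be told apart.

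Of the 33 genes, 22 reached 1 TPM or more in both libraries, against 33.9% of all annotated genes and 62.2% of the 21474 protein-coding genes. All 5 receptors, all 4 feedback inhibitors, both Ets factors and all 4 homologous factors were among them, but only 7 of the 18 other Fgf genes. The 22 genes were the same at this threshold in either library alone. These levels sum coding and noncoding transcripts, and the coding transcripts of Fgf7 alone had 1.06 and 0.72 TPM. Summed over all 33 genes, replicate 1 held 388 TPM and replicate 2 held 408 TPM.

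**Figure D1:**
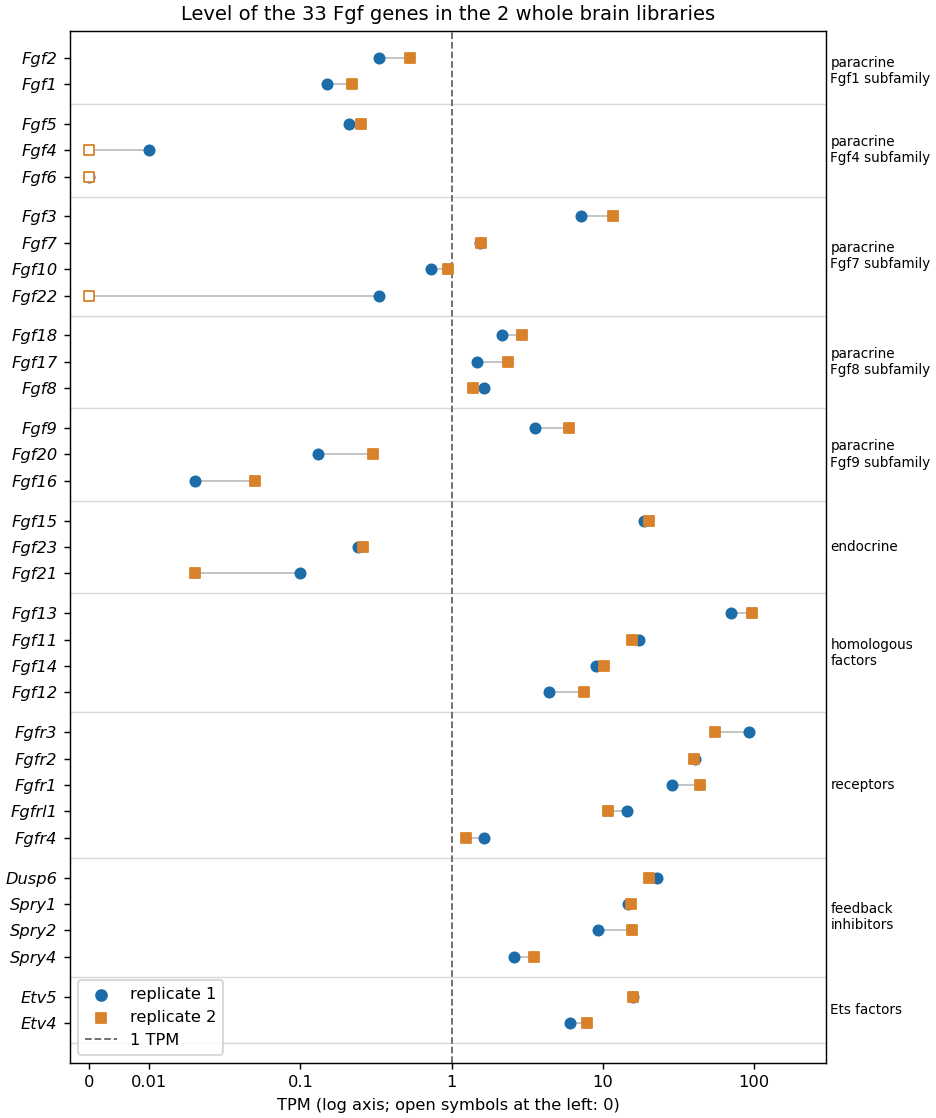
TPM of each of the 33 genes on a log axis, grouped by role, with a circle for replicate 1, a square for replicate 2 and open symbols for 0. Receptors, feedback inhibitors, Ets factors and homologous factors all lie to the right of the dashed line at 1 TPM, while 11 of the 18 other Fgf genes lie to its left.

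Among the secreted ligands, Fgf15 was the highest. Fgf15, the mouse counterpart of human FGF19, stood at 18.6 and 20.2 TPM in replicates 1 and 2, a mean of 19.4 ± 1.10 TPM (SD, n = 2). It held 45.0% ± 4.93 (SD, n = 2) of the summed TPM of the 18 ligands other than the homologous factors. Although it is classed with the endocrine ligands by sequence, it is expressed within the embryonic neural tube. The endocrine co-receptors Kl (0.24 and 0.62 TPM) and Klb (0.06 and 0.05 TPM) were below 1 TPM in both libraries. The other endocrine ligands were low. Fgf23, a bone hormone, had 0.24 and 0.26 TPM from 26 counts in each library, and Fgf21, a liver hormone, had 0.10 and 0.02 TPM from 5 and 1 counts.

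Fgf3 was second among the secreted ligands, with 7.12 and 11.65 TPM. Fgf3, a ligand known from the hindbrain and inner ear, was 1.64-fold higher in replicate 2 (interval 1.49 to 1.80). Its closest relatives were lower: Fgf7, a mesenchymal ligand, had 1.55 and 1.57 TPM, and Fgf10, best known from limb and lung buds, had 0.73 and 0.95 TPM, just under the threshold. A noncoding transcript, Fgf7-203, held 0.49 and 0.86 TPM of Fgf7. Its coding transcripts had 1.06 TPM in replicate 1 and 0.72 TPM in replicate 2, below the threshold there. Fgf22, a ligand of the same subfamily known from synapses, had 6 counts in replicate 1 and none in replicate 2, where 3 counts would correspond to 0.175 TPM.

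Fgf3, Fgf4 and Fgf15 lie next to each other on chromosome 7, within 144838083 to 144900953 (mm10), all on the + strand. Fgf4 is separated from Fgf3 by 2.93 kb and from Fgf15 by 31.3 kb, yet it had 2 counts in replicate 1 and none in replicate 2, while both of its neighbours were among the most abundant secreted ligands. A second pair of neighbours, Fgf6 and Fgf23 on chromosome 6, 44.7 kb apart, was low as a whole. Fgf6 is the 1 member with no count in either library, and 3 counts would be 0.0433 and 0.0479 TPM.

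The Fgf8 subfamily, whose ligands are made by the signalling centres at the front of the forebrain and at the border of midbrain and hindbrain, was detected in full but low. Fgf8 had 1.65 TPM in replicate 1 and 1.38 TPM in replicate 2, Fgf17 had 1.47 and 2.37 TPM, and Fgf18 had 2.14 and 2.92 TPM. Their libraries overlapped, so the order Fgf18, Fgf17, Fgf8 is not separated beyond the spread except between Fgf18 and Fgf8. Together they made 5.26 and 6.67 TPM. Fgf8 rested on 78 and 54 counts and its interval of the fold between the libraries, 0.580 to 1.20, included 1.

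Fgf9, a ligand made by neurons and other tissues, had 3.58 and 5.93 TPM and was 1.66-fold higher in replicate 2 (interval 1.47 to 1.87). Its subfamily members Fgf16 (2 and 4 counts) and Fgf20 (6 and 9 counts) were far below it. Fgf1 and Fgf2, which lack a classical signal peptide, were at 0.15 and 0.22 TPM and at 0.33 and 0.53 TPM. Of the Fgf2 value in replicate 1, 0.20 TPM rested on 1.4 counts of a noncoding transcript, Gm43439-201. Coding transcripts of Fgf2 had 0.13 and 0.53 TPM. Fgf5, a ligand known from hair follicles, was at 0.21 and 0.25 TPM. Fgf2 shares 640 exonic bases with Nudt6 on the opposite strand, and Fgf20 and Fgf22 share 202 and 82 with Micu3 and Rnf126 on theirs. Fgf15 shares 761 with the antisense gene Gm26793, which had 1.74 and 2.63 TPM. Rnf126 stood at 112 and 94.1 TPM. Whether the authors' counting used the strand of these stranded libraries is not stated in the labels or files. Reads of Fgf22, Fgf20, Fgf2 and Fgf15 therefore cannot be told apart from those of their neighbours over the shared bases.

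The homologous factors held 72.5% of the summed TPM of the 22 Fgf genes in replicate 1 and 72.7% in replicate 2, a mean of 72.6% ± 0.182 (SD, n = 2). Fgf13 alone made 52.2% ± 2.57 (SD, n = 2). Fgf13, on chromosome X (59062145 to 59568071), had 70.2 TPM in replicate 1 and 96.2 TPM in replicate 2, more than 91.2% of protein-coding genes. It was the highest of the 33 genes on average, but its 2 libraries overlapped those of the second, Fgfr3. Fgf11 had 17.3 and 15.5 TPM, Fgf14 had 8.99 and 10.2 TPM, and Fgf12 had 4.40 and 7.46 TPM, so the 4 genes kept the order Fgf13, Fgf11, Fgf14, Fgf12 in each library without overlap.

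Genes that the homologous factors are known to act with were present too. All 7 listed partners reached 1 TPM in both libraries, against 62.2% of protein-coding genes. Of the 4 sodium channel genes, Scn3a was the highest in each library (40.8 and 42.5 TPM), ahead of Scn8a (19.7 and 21.2 TPM), Scn2a (12.2 and 18.2 TPM) and Scn1a (8.31 and 8.19 TPM). Ank3, which encodes the ankyrin that anchors these channels at the start of the axon, had 62.3 TPM in replicate 1 and 137 TPM in replicate 2. Mapk8ip2, a scaffold that binds homologous factors, had 72.3 and 75.7 TPM.

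Fgf13 is a gene with several promoters, whose first exons give the protein different starts. Junction reads, deposited as 1 sum over both libraries with their R1 and R2 parts, showed which exons led into the shared one. A junction read is a read that crosses from one exon to the next. The exon of 111 bases that all starts share received 783 reads. An exon of 168 bases, joined over an intron of 119 kb, gave 365 of them, 46.6% (95% Clopper-Pearson interval 43.1 to 50.2). It is an internal exon and itself received 482 reads from the far upstream exon. The far upstream exon, joined directly over 435 kb by a junction that is not annotated, gave 187, 23.9%. These reads skip the exon of 168 bases, so they and the 365 are not reads of separate starts. The start of Fgf13-201 right before the shared exon gave 179, 22.9%, and the start of Fgf13-202 gave 46, 5.87%.

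Introns above 100 kb thus carried 552 of the 783 reads, 70.5% (interval 67.2 to 73.7). In the deposited transcript table Fgf13-202 held 29.4% and 23.4% of the gene's TPM in replicates 1 and 2, above its 5.87% of junction reads. Fgf13-201 held 22.1% and 24.5%, near its 22.9% of junction reads. The rest was mostly spread over several transcripts that hold the far upstream exon, not all of which begin at it. The start of Fgf13-202 also had unlike R1 and R2 reads, 8 and 38. The cause of the difference for Fgf13-202 was not tested.

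All 4 homologous factors had fewer junction reads into the shared exon than out of it, and for Fgf13 1355 reads went out against the 783 that came in. The shared exon of Fgf14 had 143 reads coming in and 291 going out, and 129 of the incoming ones came from the start of Fgf14-201 over 56.0 kb. The start of Fgf14-202 lies 540.2 kb away, and no read joined it, although the transcript table gave Fgf14-202 44.6% and 54.3% of the gene's TPM. The junction table holds 2211 introns of that length or more, and none of them is tagged as annotated. In Fgf12, 117 reads entered the exon of 111 bases from the start of Fgf12-201, and 273 left it. For Fgf11 the values were 264 in and 368 out.

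All 5 receptor genes were detected, at very different levels. Fgfr3, on chromosome 5 (33721674 to 33737068), had 91.9 TPM and 55.6 TPM in replicates 1 and 2, a mean of 73.8 ± 25.7 TPM (SD, n = 2). Fgfr2, on chromosome 7, had 40.8 and 40.3 TPM, and Fgfr1, on chromosome 8 (25513654 to 25575718), had 28.5 and 44.1 TPM. Fgfrl1, which encodes a receptor without a kinase domain, had 14.5 and 10.8 TPM, and Fgfr4 had 1.64 and 1.24 TPM. Fgfr3 was above Fgfr2 and Fgfr1 in both libraries, while Fgfr2 and Fgfr1 changed places between them.

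Within the summed TPM of the 4 kinase receptors, Fgfr3 went from 56.4% in replicate 1 to 39.3% in replicate 2 and Fgfr1 from 17.5% to 31.2%. Fgfr2 took 25.05% and 28.6%, and Fgfr4 took 1.01% and 0.878%. The 4 genes together made 163 TPM in replicate 1 and 141 TPM in replicate 2. Fgfr3 was the largest share in both libraries, and its lead over Fgfr1 was smaller in replicate 2.

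The receptor levels include much RNA assigned to transcripts that the annotation does not class as coding. Retained-intron transcripts, which keep an intron and are annotated without a protein, took 47.6% and 41.0% of the TPM of Fgfr3 in replicates 1 and 2. They took 35.0% and 40.5% for Fgfr2, 31.5% and 26.8% for Fgfr1 and 38.4% and 18.7% for Fgfr4, and Fgfrl1 has no such transcript. As a share of expected counts, which are not corrected for length, the values were lower, for Fgfr3 22.4% and 19.3%. Among the Fgfr3 models, the retained-intron Fgfr3-206, of 641 bases, had 24.3 TPM and 702 counts in replicate 1, while the coding Fgfr3-201, of 4218 bases, had 21.9 TPM and 5991 counts.

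Counting coding transcripts alone, Fgfr3 had 48.2 and 32.8 TPM, Fgfr2 26.4 and 23.6 TPM, Fgfr1 18.5 and 30.01 TPM, Fgfrl1 14.5 and 10.8 TPM and Fgfr4 1.01 and 1.00 TPM. Fgfr3 then still led in both libraries, by a smaller margin in replicate 2. For Fgfr2, 1 coding model deserves care. Fgfr2-217 stretches the gene to 2961 kb and brings 314 exonic bases in common with Ctbp2 on the same strand, and it held 12.2 and 9.63 TPM. Without it Fgfr2 stood at 28.6 and 30.7 TPM, a mean of 29.7 ± 1.45 (SD, n = 2) against 40.6 ± 0.325 with it. The coding values of Fgfr2 given above, 26.4 and 23.6 TPM, include Fgfr2-217. The next highest coding model of Fgfr2 held 7.43 and 6.83 TPM. Without Fgfr2-217, coding Fgfr2 would lie below coding Fgfr1 in both libraries, and the retained-intron shares of Fgfr2 would be higher. Ctbp2 had 117 and 87.8 TPM, and its part in the Fgfr2 value was not tested.

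**Figure D2:**
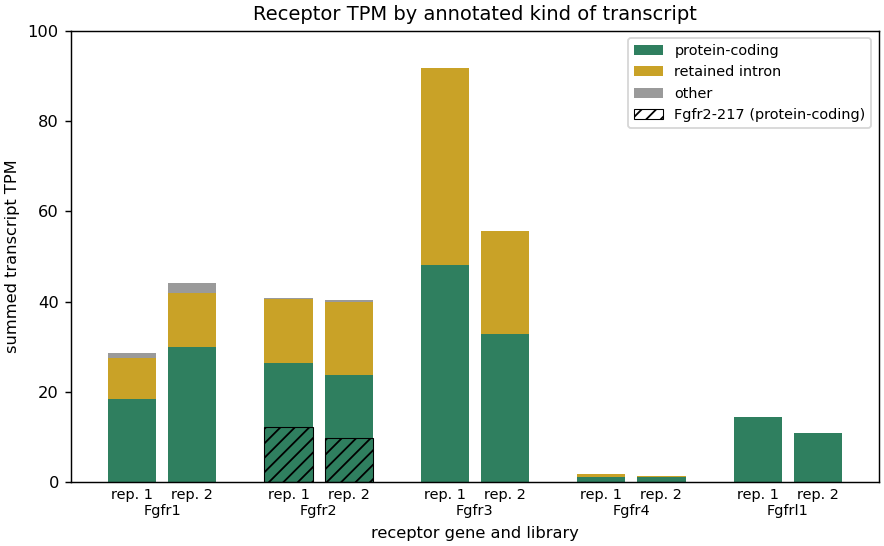
Summed transcript TPM of the 5 receptor genes in each library, stacked by the annotated kind of transcript, with the far-reaching model Fgfr2-217 hatched. Coding transcripts of Fgfr3 are the highest in both libraries at 48.2 and 32.8 TPM, and retained-intron transcripts make a large part of Fgfr1, Fgfr2 and Fgfr3.

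In the IIIb and IIIc pair, exon IIIc carried nearly all junction reads. For Fgfr1, 861 of 865 reads into or out of the pair used IIIc, 99.5% (95% Clopper-Pearson interval 98.8 to 99.9), and 4 used IIIb. For Fgfr2, 498 of 532 used IIIc, 93.6% (91.2 to 95.5), and 34 used IIIb. For Fgfr3, 1508 of 1570 used IIIc, 96.1% (94.97 to 97.0), and 62 used IIIb. The IIIb share was higher in Fgfr2 and Fgfr3 than in Fgfr1 beyond the counting intervals, 6.39% and 3.95% against 0.462%, while those of Fgfr2 and Fgfr3 overlapped each other. For Fgfr3 this rests on the reads into the pair: out of it, 3 of its reads and 1 read of Fgfr1 used IIIb, 0.432% and 0.222%, too few to separate these genes. A fragment that crosses both sides of the exon counts at each, so the reads are not all independent.

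The R1 and R2 read sets, which no text ties to a library, gave IIIc shares of 99.4% and 99.6% for Fgfr1, 93.9% and 93.2% for Fgfr2 and 95.7% and 96.7% for Fgfr3. The order of the 3 genes was the same in both. Transcript TPM by the exon held gave 99.6% and 99.7% for Fgfr1 and 93.0% and 92.8% for Fgfr3 in replicates 1 and 2. For Fgfr2 it gave 84.8% and 83.1%. The values of Fgfr2 and Fgfr3 lay below the intervals of their junction reads.

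The IIIb reads of Fgfr3 were uneven along the exon. A total of 59 reads entered IIIb from the exon before the pair, and 3 left it for the exon after the pair. Another 27 reads, on a junction that is not annotated, went from IIIb to IIIc, which puts both exons into one RNA, and 15 reads skipped both. For Fgfr2 21 reads entered and 13 left IIIb, with 5 going from IIIb to IIIc, and for Fgfr1 no read joined both exons. Counted by the way in alone, the IIIb share of Fgfr3 was 6.74%.

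Epithelial RNA was measurable beside these IIIb reads. Of the 6 epidermal markers all reached 1 TPM in both libraries, with a summed level of 89.9 and 91.5 TPM, Krt5 at 25.5 and 37.8 TPM, Krt14 at 18.9 and 27.9 TPM and Krtdap, which went the other way, at 25.5 and 4.22 TPM. All 6 choroid plexus markers were detected as well, with Ttr, the transthyretin that this epithelium secretes, at 994 and 1336 TPM. The part of either tissue in the IIIb reads was not tested.

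The exon that follows the pair encodes the stretch through the membrane and ends at 1 of 2 positions 6 bases apart. The longer end adds 2 codons just inside the membrane, in the region where the adaptor Frs2 docks. The last 30 bases of the longer form are shown for Fgfr1 and Fgfr2, the genes for which the annotation holds both ends, with the added bases in capitals.
Fgfr1, chr8:25566884-25566913, + strand: aagagcatccctctgcgcagacagGTAACA
Fgfr2, chr7:130196172-130196201, − strand: aagcgcatccccctgcggagacagGTAACA

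The added bases are the same in both genes. The longer end carried 296 of 346 reads in Fgfr1, 85.5% (interval 81.4 to 89.1), and 288 of 333 in Fgfr2, 86.5% (82.3 to 90.0). In Fgfr3 a junction with an intron 6 bases shorter than the annotated one carried 65 of 570 reads, 11.4% (8.91 to 14.3). The read sets gave 88.6% and 82.8% for Fgfr1, 89.1% and 83.5% for Fgfr2 and 13.4% and 8.55% for Fgfr3, so Fgfr3 stood apart from the other two by far more than either spread. In all 3 genes the junction of the longer end is tagged as having non-canonical splice sites. Those of the shorter end are tagged as canonical. Any effect of this on the read counts was not tested. The junctions of the longer end are not tagged as annotated for Fgfr2 and Fgfr3. For Fgfr2 the table places that junction 1 base away from the expected position at both sides, and it was assigned by its intron, 6 bases shorter. This event, and the exon skipping below, were chosen after their reads were seen.

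**Figure D3:**
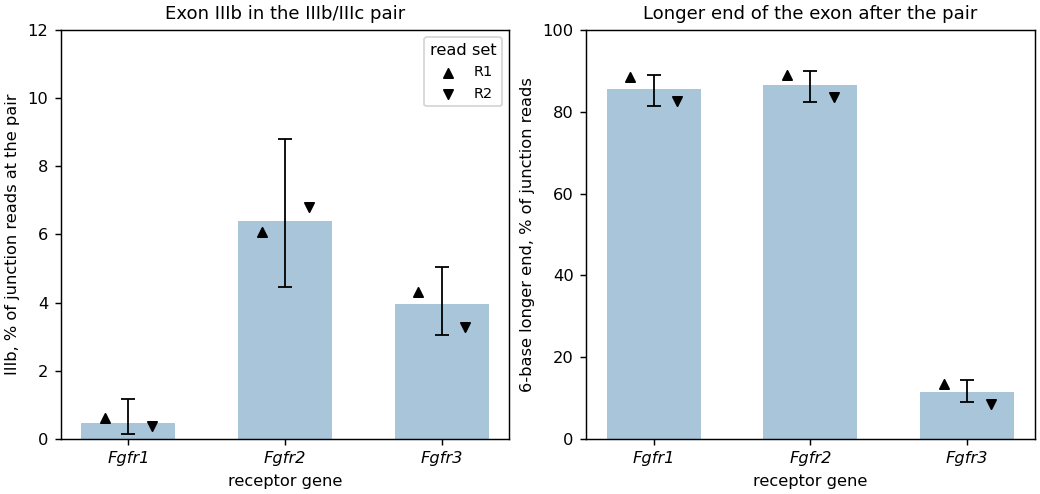
Left, share of exon IIIb among junction reads at the pair. Right, share of the longer end of the following exon. Bars are both libraries summed, error bars are 95% Clopper-Pearson intervals and triangles are the R1 and R2 read sets. IIIb stays below 7% in all 3 genes, and the longer end is above 82% in Fgfr1 and Fgfr2 but below 14% in Fgfr3.

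The exon of the first immunoglobulin-like domain was used differently in Fgfr1 and Fgfr2. It is 267 bases long in both, and receptors without it bind ligand more tightly. In Fgfr1, 420 of 431 reads leaving the exon before it entered it, and 11 went past it, 2.55% (interval 1.28 to 4.52). In Fgfr2, 43 of 293 entered it and 250 went past, 85.3% (80.7 to 89.2), of which 124 went to the next exon, of 78 bases, and 122 beyond that one too. Measured at the next exon instead, 148 reads came from the 267-base exon and 124 from before it, so that skipping was 45.6% (39.6 to 51.7) by this route. By either count skipping was more frequent in Fgfr2 than in Fgfr1, whose value by the second route was 1.20% (0.521 to 2.36). Fgfr3 skipped an exon of 54 bases in 70 reads against 593 into and 281 out of it, a share of 13.8% when the mean of in and out stands for inclusion, and Fgfrl1 skipped one of 273 bases in 18 reads against 116 and 204, 10.1%.

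Of the 4 feedback genes, Spry2 differed by more than 1.5-fold between the libraries and the other 3 by less. Dusp6, the phosphatase that switches off the MAP kinases Erk1 and Erk2, had 22.6 and 20.1 TPM, a mean of 21.4 ± 1.77 TPM (SD, n = 2). Spry1 had 14.8 and 15.4 TPM, Spry2 had 9.32 and 15.6 TPM and Spry4 had 2.59 and 3.49 TPM. Spry1 and Spry2 were both far above Spry4 in each library. The Ets factor Etv5 had 15.9 and 15.7 TPM, a mean of 15.8 ± 0.113 TPM (SD, n = 2), and Etv4 had 6.03 and 7.90 TPM, below Etv5 in both libraries. Etv5 came almost wholly from 1 transcript, Etv5-201 with 94.9% and 96.6%, while Etv4 was spread over several coding and noncoding transcripts, the highest of them at 28.8% in replicate 1 and 35.2% in replicate 2.

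Between the libraries, 0 members were 2-fold apart, on the scale of TPM + 1, among the 22 with a mean of 1 TPM or more, against 3.52% of all 15240 genes at that level. Of those genes, 2.39% were at least 2-fold higher in replicate 2 and 1.14% at least 2-fold lower. At 1.5-fold, 5 of the 22 were higher (Spry2, Fgf12, Fgf3, Fgfr1 and Fgf9) and 1 was lower (Fgfr3), against 9.46% and 6.41% of all genes. In all, 14 of 22 were higher and 8 lower in replicate 2, and the median log2 ratio was 0.14, beside 51.0% of all genes higher and a median of 0.01. The median size of the difference, whatever its sign, was 0.32 for the members and 0.27 for all genes on the log2 scale.

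The 6 members more than 1.5-fold apart all had counting intervals clear of 1. They were picked by the ratio between the same libraries, so their intervals are no separate support for a difference. Fgfr3 fell by 0.72 on the log2 scale of TPM + 1, with a fold of 0.605 (interval 0.589 to 0.620). Spry2 was higher by 0.68, with a fold of 1.67 (1.55 to 1.80), and Fgf12 by 0.65, with a fold of 1.70 (1.55 to 1.85). Fgfr1 was higher by 0.61, with a fold of 1.55 (1.4995 to 1.59). These intervals hold counting error alone. Of the 22 members, 17 had intervals that left out 1. The same count was not made over all genes, so it does not set the members apart. The differences of the 17 exceeded counting error, without a test against the spread of replicates. The 5 whose intervals held 1 were Fgf7, Fgf8, Fgfr2, Spry1 and Etv5. For Fgf7, whose expected counts went from 172 to 126, this depends on the rescaling to the TPM fold.

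**Figure D4:**
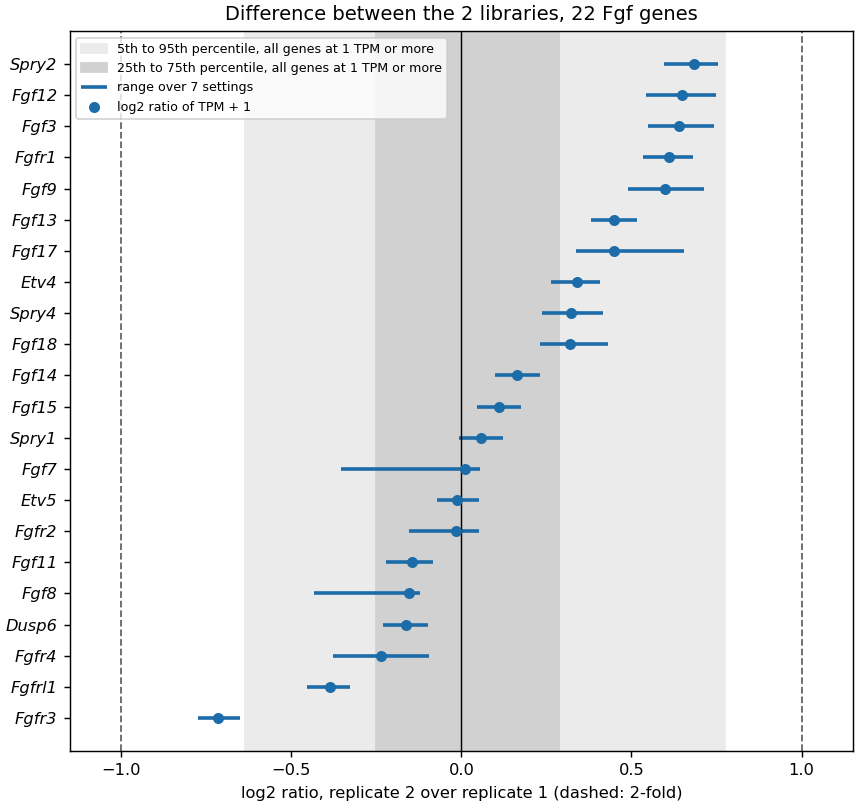
Log2 ratio of TPM + 1, replicate 2 over replicate 1, for the 22 genes with a mean of 1 TPM or more, with the range over 7 settings as a bar and the spread of all 15240 genes in grey. All points lie between −0.72 for Fgfr3 and 0.68 for Spry2, inside the dashed 2-fold lines, and Fgfr3 lies outside the range that holds the middle of the genes from the 5th to the 95th percentile.

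The libraries also differed in markers of brain regions. All 10 forebrain markers were lower in replicate 2, with summed levels of 886 and 377 TPM, and all 10 hindbrain markers were higher, 29.04 and 184 TPM. The 10 markers of the midbrain-hindbrain border and cerebellum were all higher, 90.1 and 157 TPM, and all 5 markers of intermediate progenitors were lower, 234 and 115 TPM. Radial glial markers, of the progenitors in which Fgfr3 and Fgfr2 are known to be expressed, were lower for 5 of 9, 2172 and 1995 TPM. None of these markers was at 0 in either library. The part of these regions in the differences of Fgfr3, Fgfr1, Fgf3, Fgf12, Fgf9 and Spry2 was not tested.

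Markers of other tissues, and of vessels and blood, moved in both directions. The 6 bone markers were all higher in replicate 2, with sums of 14.4 and 51.8 TPM, and Ibsp, a bone matrix protein, went from the lowest of them at 0.17 TPM to the highest at 20.3 TPM. The 8 markers of meninges and fibroblasts, a source of paracrine Fgf ligands, were all higher in replicate 2, 216 and 432 TPM in sum, with Col1a1 at 36.6 and 146 TPM. Endothelial markers were higher for 5 of 6, 144 and 170 TPM, and erythroid markers for 6 of 6, 3096 and 3942 TPM. Skeletal muscle markers were lower for 4 of 6, 27.8 and 18.0 TPM, and the 6 cartilage markers, of which 3 were higher and 2 lower, summed to 94.6 and 84.4 TPM. Fgf7 and Fgf18 are ligands that meninges and skull tissue also make. Fgf18 was 1.36-fold higher in replicate 2. For Fgf7 the fold by TPM was 1.01 with an interval that held 1, its expected counts were 172 and 126, and its sign changed with the scaling. Its coding transcripts went from 1.06 to 0.72 TPM. The part of these tissues was not tested.

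Other genes of the pathway were broadly present. Of 74 genes on 4 lists that were found in the tables, 71 reached 1 TPM in both libraries, against 62.2% of protein-coding genes. Among 25 co-receptors, cofactors and matrix partners, 23 did, led by the heparan sulfate proteoglycans Gpc2 (659 and 429 TPM), Sdc3 (113 and 209 TPM) and Gpc1 (130 and 137 TPM). All 22 adaptors and Ras-MAPK genes did, with the kinase genes Araf at 218 and 174 TPM and Mapk3 at 182 and 159 TPM. Frs2, the adaptor that docks on the receptors, had 25.4 and 26.1 TPM.

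Of 20 other inhibitors and targets, 19 reached the threshold, with Dusp4 at 68.2 and 68.7 TPM, Rasa1 at 53.2 and 60.9 TPM and Ccnd1 at 37.1 and 41.1 TPM the highest. Dusp4 was above Dusp6 in both libraries, and Dusp6 is the one commonly used as a readout of the pathway. Across the 4 lists, 72 genes had a mean of 1 TPM or more. Of these, 3 were at least 2-fold higher in replicate 2 and 1 lower, against 2.39% and 1.14% of all genes at that level. The higher genes on the lists were Ank3, the heparan sulfate sulfotransferase gene Hs6st3 (3.34 and 8.31 TPM) and Ncam1 (84.3 and 171 TPM). Ncam1 encodes a neural adhesion molecule that binds receptors. The lower gene was the phosphatase gene Dusp14 (20.8 and 8.84 TPM). The median log2 ratio was 0.28 for the co-receptors and cofactors, −0.04 for the adaptors and Ras-MAPK genes and 0.27 for the other inhibitors and targets, beside 0.01 for all genes.

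Transcript use could be set side by side for 16 of the 22 members that have 2 or more transcripts. In 9 of them the same transcript led in both libraries, and in 7 of these it held 50% or more in both. The same counts were not made over all genes, so whether these are usual values was not tested. Fgf11-202 held 92.0% and 90.3% of its gene's TPM, Fgfr4-201 held 61.6% and 81.3%, Spry1-201 held 63.8% and 74.8% and Fgf3-201 held 61.5% and 66.9%. The 7 genes with a different leader in each library were Fgf7, Fgf8, Fgf13, Fgf14, Fgfr2, Fgfr3 and Etv4. Of these Fgf8 had 78 and 54 counts spread over its transcripts, too few to order them.

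For Fgf9 the start exon that gave most junction reads was not the one that led in TPM. Of 72 reads into the second exon, 52 came from the start of Fgf9-202, 72.2% (interval 60.4 to 82.1), 19 from that of Fgf9-201 and none from that of Fgf9-203, with a Clopper-Pearson upper bound of 4.99%. The transcript table gave Fgf9-203 39.8% and 35.2% and Fgf9-202 38.4% and 34.8% of the TPM.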

How the data were processed

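RNA of 2 whole brain libraries was analysed from the deposited tables. Expected counts and TPM per gene and transcript were estimated by the authors from transcriptome alignments to mm10 with GENCODE M4, per the text notes deposited with the samples, which name no tool. The authors' TPM includes mitochondrial and spike-in rows. The deposited FPKM and posterior mean TPM served as alternatives. The deposited mm9 gene table holds RPKM on Ensembl 65, and its 2 values, like the R1 and R2 parts of the junction counts deposited by the authors, are not tied to a library. Each junction carries a deposited reproducibility fraction, which from its values is low where both read sets are high. Junction flags and exons are mm9, and exons were tied to mm10 through transcript identifiers, never by converting coordinates.

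Gene names, positions and transcript kinds came from GENCODE M21, and sequences were cut from its transcripts. Spry3 was not matched and is not analysed here. No count fell on the 26248 rows whose name is a number, and 97 spike-in rows, with 4.12% and 3.53% of the counts, stayed out of gene totals. A member counted as detected at 1 TPM in both libraries. Differences are log2 ratios of TPM with a pseudocount of 1, which understates the change of low genes, where the mean reached 1 TPM. With 1 library against 1 there are no residual degrees of freedom, so no p-value was computed. For counts of 0 the limit is 3 counts, which is 2.78e-06% and 2.97e-06% of all counts. Exon IIIb is the upstream and IIIc the downstream exon of a pair that shares both neighbours, and their share uses reads into and out of each. Junctions needed 10 reads in the search for exon ends. Some gene values and exon sequences are not reported here.

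The members and all gene lists were chosen with earlier results of these data known. Named genes are all members, the 3 highest genes of each other list and those at least 2-fold apart, of which a part is named. Kl, Klb, Scn1a, Scn2a, Scn8a, Frs2, Nudt6, Micu3, Rnf126, Gm26793 and Ctbp2 were added after their values were seen. Expected counts were rounded for TMM (edgeR 4.0.16) and size factors (DESeq2 1.42.0), both alternatives. The work ran in R 4.3.3 and in Python 3.11.15 with scipy 1.17.1, pandas 2.3.3 and numpy 2.4.6. The fold and share steps were tested on simulated data.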

Additional observations from a re-analysis of the deposited data

How the results depend on the processing

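Of 59 recomputed values, 43 were classed as the same and none reversed. A count was the same within 1.5 times and a share within 1 SD. The 43 include 8 values of the median log2 ratio, which kept its sign. They ran from 0.06 without a filter on low values to 0.20 rescaled without mitochondrial and spike-in rows, beside 0.14 as reported. The number of members detected was 22 and became 14 at a threshold of 5 TPM, 18 by FPKM and 12 by mm9 RPKM of 1 or more. It was 22 with either library left out. The mm9 RPKM lies on a lower scale than TPM, for Fgf13 8.16 and 6.90 against 70.2 and 96.2 TPM. A cut-off of 1 RPKM is therefore stricter than 1 TPM. The homologous factors' share of 72.6% became 76.1% by expected counts, 73.6% by posterior mean TPM and 69.8% by mm9 RPKM, and lay between 72.5% and 72.7% with a library left out. The number of genes led by the same transcript at 50% or more was 7, and 9 with either library left out, with coding transcripts alone or by expected counts. For Fgfr1 the IIIc share was 100% among junctions with a reproducibility value of 0.1 or less and among those with 10 or more reads, 99.3% by junctions into the pair and 99.8% by those out of it. For Fgfr2 it was 91.7% into, 95.3% out of, and 83.9% by transcript TPM. For Fgfr3 it was 93.3% into, 99.6% out of, and 92.9% by transcript TPM. The cause of these shifts was not tested. Counts of members 2-fold apart were 0 under every scaling, pseudocount and filter tried, and 18 of 22 members kept the sign of their difference under 7 settings; Etv5, Fgf7, Fgfr2 and Spry1 did not. Members higher in replicate 2 were 63.6% of 22 as reported and 54.5% by FPKM, and 51.0% and 45.0% of all genes. The Fgfr2 value without Fgfr2-217 was added after seeing the data. Ratios between libraries cannot be recomputed with a library left out. No paired analysis was possible because both libraries belong to 1 group.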
